A study of Mus musculus with 8 samples.

Results

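The genes described here are 39 interferon response genes, chosen by name from a list of known interferon targets and matched by identifier in all 8 liver libraries, out of 56953 gene identifiers in the files. The 8 libraries are poly(A) RNA from whole liver of adult male mice, 4 from HSC-PCK1-KO mice, in which Pck1 (phosphoenolpyruvate carboxykinase 1) was deleted in hepatic stellate cells, and 4 from control mice with a wild-type genotype. Control mice too had been on the choline-deficient high-fat diet (CDHFD), which gives mice a fatty, inflamed and scarred liver, for 8 weeks. A single batch label covers all libraries, and the design text calls the 4 of a group biological replicates. The sources used here do not give the Cre driver, the strain or the age in weeks. The title links the loss of PCK1 in stellate cells to liver fibrosis, and the comparison of genotypes asks here whether the interferon response of the whole liver differed with it.

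Interferons are secreted proteins that warn cells of infection or damage. Type I interferons act through the receptor pair IFNAR1 and IFNAR2 and the kinases JAK1 and TYK2 on a complex that holds STAT2 and IRF9 and binds a DNA element called ISRE. Interferon gamma, made by T cells and natural killer cells, acts through JAK1 and JAK2 on genes with an element called GAS, and it induces IRF1, a factor that binds ISRE-like sites. In liver, hepatocytes, Kupffer cells and endothelial cells all carry interferon receptors. The genes fall into transcription factors, sensors of foreign nucleic acid, the ubiquitin-like ISG15 system, antiviral RNA-binding proteins and synthetases, and large families of GTPases that attack the vacuoles of intracellular pathogens.

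Promoters were examined to show what the genes share in sequence. RefSeq promoter windows of 300 bases on GRCm38.p6, from 250 bases before to 50 after a transcription start, matched 29 of the 39 genes with 34 windows. An ISRE-like match, the letters GAAA, any 2 bases and GAAA again on either strand with overlaps allowed, was in 19 of the 34 windows (55.9%) and in 3.44% of all 32851 windows. A GAS-like match, TTC, any 3 bases and GAA, which reads alike on both strands, was in 9 of the 34 (26.5%) and in 8.3% of all windows. In 6 genes both were found, and in 8 of the 29 neither was. The 6 promoters below are shown because Isg15 and Ifit1, with ISRE-like matches alone, are textbook type I targets, Bst2 had the smallest p of the 39 genes, Igtp and Tgtp1 were among the 3 genes with the largest SD within groups, and Irgm2 shares a long stretch with Igtp. Each line gives the 150 bases before the start, 5′ to 3′ on the gene's strand, and capitals mark the matches, the GAS-like one first where both are present and overlapping the ISRE-like ones in Bst2.
Isg15, chr4:156200819-156200968, minus strand: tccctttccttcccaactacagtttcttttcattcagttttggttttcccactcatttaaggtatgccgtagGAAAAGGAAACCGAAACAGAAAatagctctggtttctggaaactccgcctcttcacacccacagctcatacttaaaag
Ifit1, chr19:34640739-34640888, plus strand: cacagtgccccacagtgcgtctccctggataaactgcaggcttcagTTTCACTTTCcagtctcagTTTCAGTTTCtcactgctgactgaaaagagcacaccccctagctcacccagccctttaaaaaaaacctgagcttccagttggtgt
Bst2, chr8:71537473-71537622, minus strand: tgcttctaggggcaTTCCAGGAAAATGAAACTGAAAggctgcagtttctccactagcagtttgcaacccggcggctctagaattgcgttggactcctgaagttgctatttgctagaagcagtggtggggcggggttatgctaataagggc
Igtp, chr11:58199406-58199555, plus strand: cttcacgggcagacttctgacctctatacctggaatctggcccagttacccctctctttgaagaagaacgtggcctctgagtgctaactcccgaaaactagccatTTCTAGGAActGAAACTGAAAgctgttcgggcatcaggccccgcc
Irgm2, chr11:58214827-58214976, plus strand: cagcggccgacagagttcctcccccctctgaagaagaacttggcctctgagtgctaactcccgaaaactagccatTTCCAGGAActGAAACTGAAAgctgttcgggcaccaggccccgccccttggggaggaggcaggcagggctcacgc
Tgtp1, chr11:48992247-48992396, minus strand: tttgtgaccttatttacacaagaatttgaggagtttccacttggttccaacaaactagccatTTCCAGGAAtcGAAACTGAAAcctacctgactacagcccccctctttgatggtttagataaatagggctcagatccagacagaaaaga

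In the 3 GTPase promoters the GAS-like match was followed after 2 bases by the ISRE-like match, from -45 to -37 and -34 to -25 in Igtp, from -75 to -67 and -64 to -55 in Irgm2, and from -88 to -80 and -77 to -68 in Tgtp1. The same arrangement was in 5 of all 32851 windows, the other two belonging to Tgtp2 and Gm12185. This arrangement was picked out after the sequences were seen. The promoters of Igtp and Irgm2 shared an identical run of 38 bases, and those of Irgm2 and Tgtp1 one of 20 bases, so these genes are not independent of one another. Positions count from the RefSeq start. Of the promoters shown, those of Bst2 and Irgm2 had a start whose following bases were in no GENCODE M21 transcript of the gene. A match describes letters in a window and is not evidence of binding.

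**Figure D1:**
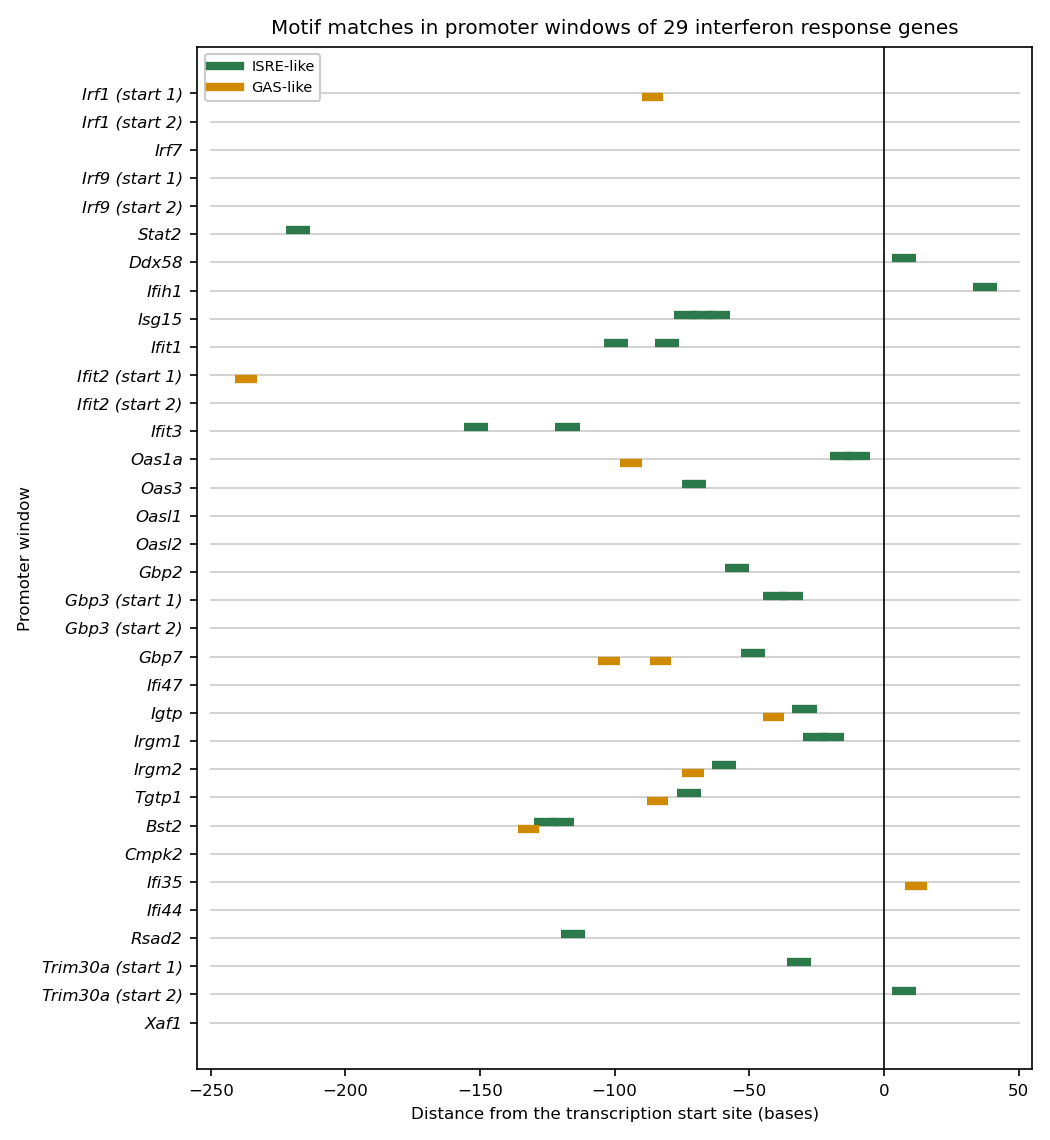
Positions of ISRE-like (green) and GAS-like (orange) matches in the 34 promoter windows of 29 interferon response genes, one line per window, with distance from the transcription start site in bases on the horizontal axis. Igtp, Irgm2 and Tgtp1 show the GAS-like match just before the ISRE-like one, and 8 genes have no match in any window.

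No interferon response gene passed the test between HSC-PCK1-KO and control livers, and the libraries farthest apart were both HSC-PCK1-KO. All 39 genes passed the filter on low counts, with a count of at least 37 in every library. No gene of the 39 was called by the quasi-likelihood test of edgeR at an adjusted p of 0.05, as was the case for 0% of the 15669 genes tested, and none passed in limma-voom or in DESeq2, which gave no p for Tgtp1 and tested the other 38. At an unadjusted p under 0.05 there was 1 of 39, Bst2, by each of these tools, where edgeR gave 2.36% of all genes, 1.02% higher and 1.34% lower in HSC-PCK1-KO. In none of the 39 did the groups separate completely, which happened in 1.53% of all genes. Libraries held 44695439 to 49477255 counts. Pck1 itself averaged 669 ± 264 CPM (read counts scaled to library size) in HSC-PCK1-KO livers, beside 1148 ± 616 CPM in control livers (SD, n = 4 each). Hepatocytes express Pck1 strongly, so whole liver does not check its deletion in stellate cells. In whole liver, fewer cells of a type and less RNA per cell cannot be told apart.

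By sign, 10 of the 39 log2 fold changes (HSC-PCK1-KO minus control) were positive and 29 negative, where 48.2% of all genes tested were positive and 51.8% negative. Their median was -0.04, beside -0.01 over all genes, and they ran from -0.30 for Oas3 to 0.48 for Tgtp1. The count of positive genes was set by single libraries. Leaving out HSC-PCK1-KO replicate 4 gave 2 positive genes, leaving out replicate 2 or 3 of that genotype gave 24 or 23, and leaving out control replicate 4 gave 21. With limma-voom and sample weights it was 3. The median standard error (SE) was 0.18 for these genes and 0.13 over all genes. For 33 of the 39 the 95% interval excluded a 2-fold difference in either direction, the others being Tgtp1, Igtp, Xaf1, Oas3, Gbp2 and Ifi44. For 30 it excluded a 1.5-fold rise and for 22 a 1.5-fold fall.

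**Figure D2:**
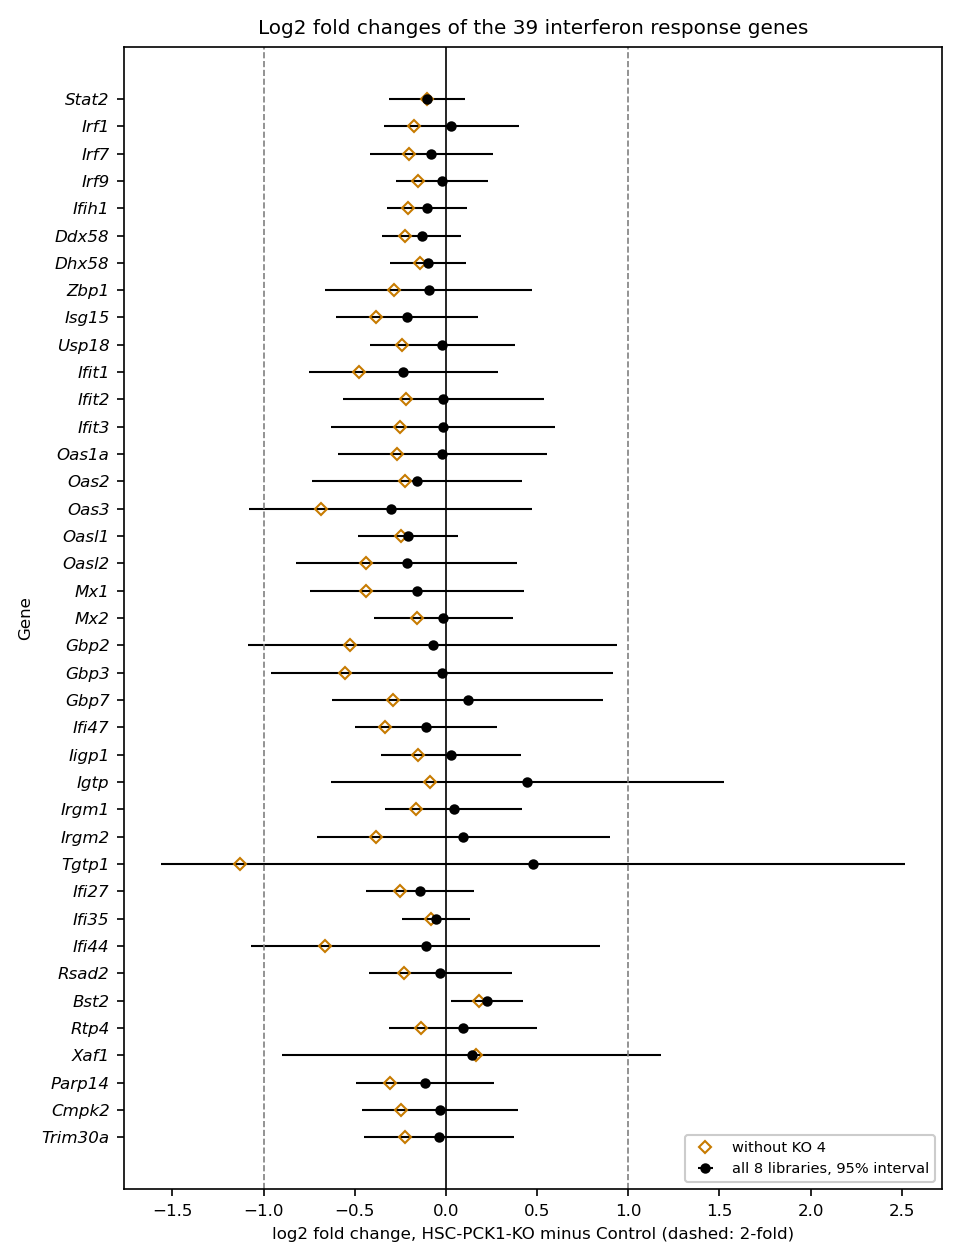
Log2 fold change of each of the 39 genes, HSC-PCK1-KO minus control, from edgeR with all 8 libraries (filled circles, bars are 95% intervals) and without HSC-PCK1-KO replicate 4 (open diamonds), with dashed lines at a 2-fold difference. The interval of every gene but Bst2 crosses 0, and 37 of the 39 diamonds lie below 0.

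The order of the libraries was shared by most of these genes. HSC-PCK1-KO replicate 4 held the highest level of all 8 libraries for 28 of the 39 genes (71.8%), where it was the highest for 13.7% of all genes tested. At the other end, HSC-PCK1-KO replicate 2 was the lowest for 17 and HSC-PCK1-KO replicate 3 for 13 of the 39, against 9.8% and 11.4% of all genes. Relative to each gene's own mean over the 8 libraries, HSC-PCK1-KO replicate 4 was above it for 38 of 39 genes, the exception being Stat2, and HSC-PCK1-KO replicates 2 and 3 were above it for 2 genes each. Among control libraries, replicate 4 was above the mean for 34 of 39, replicate 3 for 24, replicate 1 for 20 and replicate 2 for 12. Over all genes tested each library was above the mean for 50.2% to 51.4%.

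A score per library, the mean over the 39 genes of the z score of log2 CPM, gave the same picture. It was -0.09, -0.99, -0.84 and 1.39 in HSC-PCK1-KO replicates 1 to 4, against 0.04, -0.34, 0.13 and 0.70 in control replicates 1 to 4. The HSC-PCK1-KO libraries thus held both ends of the range, and the 4 control libraries lay between them. The median SD of log2 CPM was 0.38 within HSC-PCK1-KO and 0.21 within control for these genes, beside 0.18 and 0.17 over all genes. It was larger within HSC-PCK1-KO for 31 of the 39 genes and for 49.8% of all genes. Without HSC-PCK1-KO replicate 4 the median SD within HSC-PCK1-KO was 0.20.

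**Figure D3:**
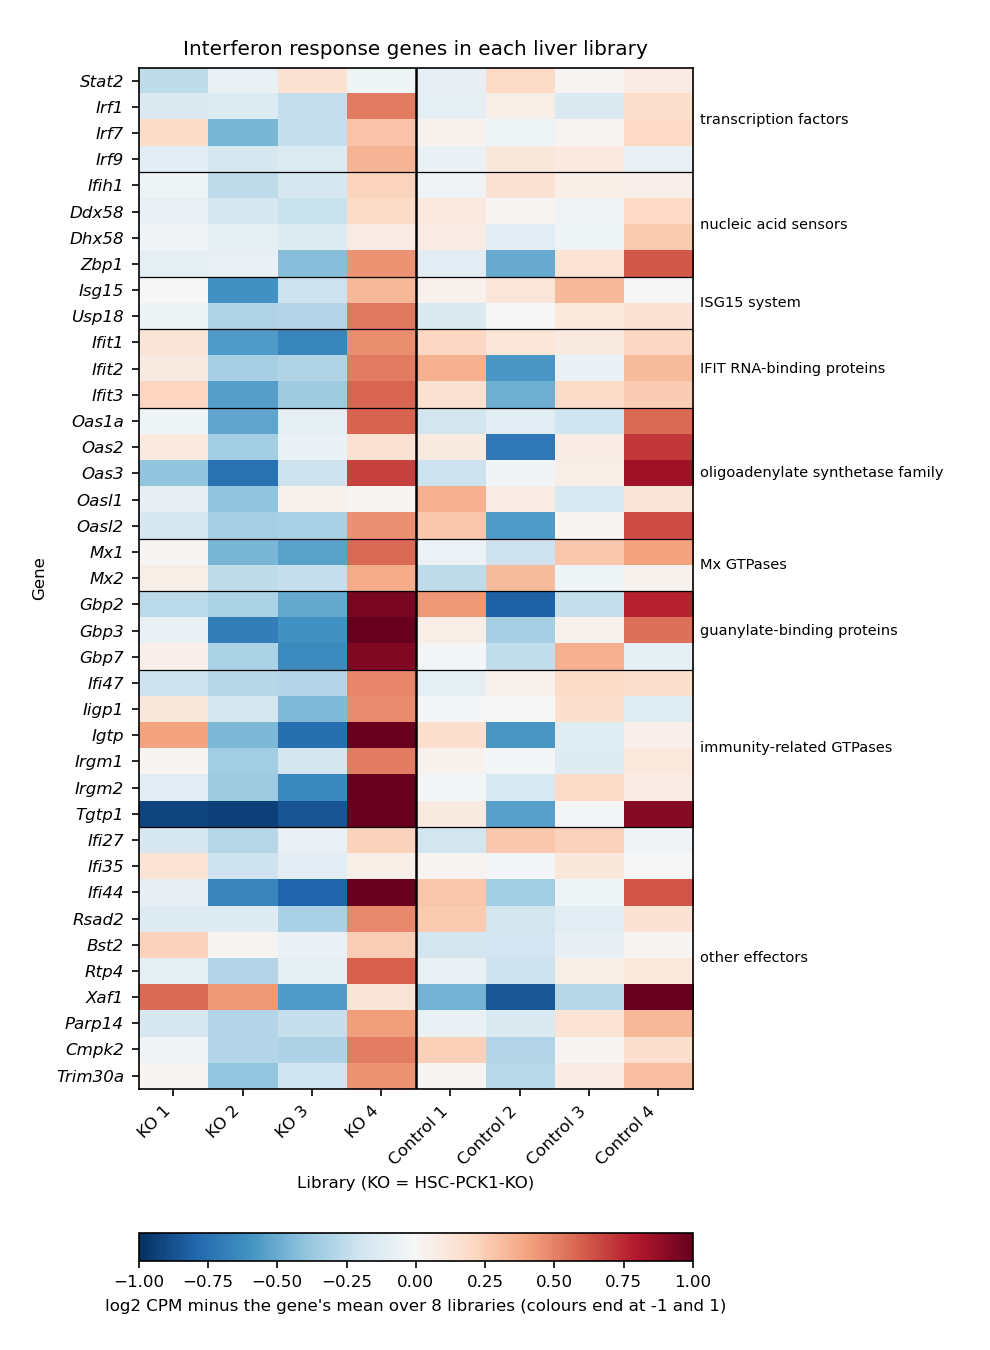
Level of each of the 39 genes in each library as log2 CPM minus the gene's mean over the 8 libraries, with red for higher and blue for lower, HSC-PCK1-KO libraries left of the line and control libraries right of it, and genes grouped by role. HSC-PCK1-KO replicate 4 is above the mean for 38 of 39 genes, and HSC-PCK1-KO replicates 2 and 3 are below it for nearly all.

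The transcription factors had log2 fold changes between -0.10 and 0.03. Stat2 (ENSMUSG00000040033.17), a subunit of the ISRE-binding complex, stood at 66.9, 75.9, 88.7 and 77.6 CPM in HSC-PCK1-KO replicates 1 to 4, against 75.2, 91.0, 81.5 and 84.3 CPM in control replicates 1 to 4. The groups overlapped, and Stat2 did not share the order of the other genes, with its lowest level in HSC-PCK1-KO replicate 1. Its log2 fold change was -0.10 (SE 0.09). Irf9, which brings the complex to DNA, stood at 34.5, 33.2, 33.9 and 47.1 CPM in HSC-PCK1-KO livers, against 35.6, 40.3, 39.8 and 35.3 CPM in control livers. Irf1, the factor induced by interferon gamma, stood at 34.6, 34.6, 32.3 and 54.7 CPM in HSC-PCK1-KO livers, against 35.8, 39.8, 34.5 and 43.0 CPM in control livers. For both, 1 HSC-PCK1-KO library was the highest of all and the other three were near or below the lowest control value. Irf7, the amplifier of type I interferon production, averaged 42.5 ± 9.97 CPM in HSC-PCK1-KO livers, beside 44.9 ± 3.23 CPM in control livers (SD, n = 4 each).

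The nucleic acid sensors all had log2 fold changes just below 0. Ddx58 (ENSMUSG00000040296.16, named Rigi in newer annotations), the RNA sensor RIG-I, stood at 30.7, 28.6, 27.7 and 36.8 CPM in HSC-PCK1-KO livers, against 34.6, 32.6, 31.4 and 37.1 CPM in control livers. In this gene 3 HSC-PCK1-KO libraries lay below every control library and the remaining one lay among them. The log2 fold change was -0.13 (SE 0.10). Ifih1, which encodes the related sensor MDA5, and Dhx58, their regulator LGP2, had log2 fold changes of -0.11 and -0.10. Ifih1 averaged 32.5 ± 4.77 CPM in HSC-PCK1-KO livers, beside 35.0 ± 1.79 CPM in control livers (SD, n = 4 each). Dhx58 averaged 15.8 ± 1.07 CPM in HSC-PCK1-KO livers, beside 16.9 ± 1.96 CPM in control livers (SD, n = 4 each). Zbp1, a sensor of left-handed nucleic acid that can start cell death, was at -0.10 and reached its highest level, 9.65 CPM, in control replicate 4.

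Isg15 and Usp18 encode a ubiquitin-like tag and the protease that removes it, which also restrains the type I receptor. Isg15 (ENSMUSG00000035692.8), whose promoter holds 3 overlapping ISRE-like matches, stood at 11.9, 7.88, 10.3 and 15.1 CPM in HSC-PCK1-KO livers, against 12.3, 13.1, 15.0 and 12.02 CPM in control livers. The lowest 3 and the highest of the 8 values were in HSC-PCK1-KO libraries. The log2 fold change was -0.21 (SE 0.17), and -0.38 without HSC-PCK1-KO replicate 4. Usp18 averaged 13.3 ± 3.92 CPM in HSC-PCK1-KO livers, beside 13.5 ± 1.19 CPM in control livers (SD, n = 4 each).

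The IFIT proteins bind viral RNA and block its translation. Ifit1 (ENSMUSG00000034459.9), with 2 ISRE-like matches, stood at 9.92, 6.11, 5.75 and 12.5 CPM in HSC-PCK1-KO livers, against 10.5, 9.83, 9.62 and 10.5 CPM in control livers. The control libraries were nearly equal while the HSC-PCK1-KO libraries spread widely on both sides of them. Its log2 fold change was -0.23 (SE 0.23). Ifit2 and Ifit3 had log2 fold changes of -0.02 and -0.01, both with the highest level in HSC-PCK1-KO replicate 4. Ifit2 averaged 5.67 ± 1.65 CPM in HSC-PCK1-KO livers, beside 5.72 ± 1.59 CPM in control livers, and Ifit3 averaged 17.5 ± 6.36 CPM in HSC-PCK1-KO livers, beside 17.7 ± 3.78 CPM in control livers (SD, n = 4 each). Ifit3 shares 31.6% of its 100-base transcript windows with other genes, most of all with Ifit3b, so its value is uncertain.

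Oligoadenylate synthetases make the signal that activates RNase L, an enzyme that degrades RNA. All 5 family members had negative log2 fold changes, from -0.30 for Oas3 to -0.02 for Oas1a, and none passed. Oasl1 (ENSMUSG00000041827.16), a family member without synthetase activity that limits Irf7 translation in mice, stood at 17.2, 13.8, 18.8 and 18.4 CPM in HSC-PCK1-KO livers, against 23.4, 19.2, 16.4 and 20.0 CPM in control livers. Values of the 2 genotypes overlapped, and the log2 fold change was -0.21 (SE 0.12). Oas3 (ENSMUSG00000032661.10) was the lowest of the 39 genes at 0.961, 0.744, 1.10 and 2.07 CPM in HSC-PCK1-KO livers, against 1.10, 1.25, 1.33 and 2.34 CPM in control livers. Replicate 4 was the highest in each group, and the log2 fold change of -0.30 (SE 0.35) became -0.69 when HSC-PCK1-KO replicate 4 was left out and -0.003 when control replicate 4 was. Oas2 averaged 4.38 ± 0.65 CPM in HSC-PCK1-KO livers, beside 4.88 ± 1.89 CPM in control livers, and Oasl2 averaged 7.34 ± 2.11 CPM in HSC-PCK1-KO livers, beside 8.51 ± 2.87 CPM in control livers (SD, n = 4 each). Both, like Oas3, reached their highest level in control replicate 4. Oas1a shares 40.9% of its transcript windows with other genes, most of all with Oas1g, so its value is uncertain.

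Mx proteins are dynamin-like GTPases that trap viral nucleoproteins, and many inbred mouse strains carry a defective Mx1. Mx1 (ENSMUSG00000000386.19) stood at 1.99, 1.43, 1.35 and 2.95 CPM in HSC-PCK1-KO livers, against 1.89, 1.70, 2.39 and 2.62 CPM in control livers. Both the lowest pair and the highest value were in HSC-PCK1-KO libraries, with a log2 fold change of -0.16 (SE 0.26). Mx2 was at -0.02, averaging 5.40 ± 1.15 CPM in HSC-PCK1-KO livers, beside 5.46 ± 0.91 CPM in control livers (SD, n = 4 each).

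The GTPases that act on pathogen vacuoles, most of them strongly induced by interferon gamma, include the 3 genes with the largest SD of log2 CPM within groups, Tgtp1, Igtp and Gbp2. Guanylate-binding proteins had the highest level of the 8 libraries in HSC-PCK1-KO replicate 4 for all 3 genes. Gbp7 (ENSMUSG00000040253.16) stood at 10.7, 8.31, 6.63 and 19.8 CPM in HSC-PCK1-KO livers, against 10.2, 8.70, 13.2 and 9.67 CPM in control livers. Gbp2 (ENSMUSG00000028270.13) stood at 5.72, 5.53, 4.84 and 13.3 CPM in HSC-PCK1-KO livers, against 9.34, 3.89, 5.85 and 11.8 CPM in control livers. Control replicate 4 was also high for Gbp2, though not for Gbp7. Their log2 fold changes were 0.12 (SE 0.32) and -0.07 (SE 0.44), and both were negative without HSC-PCK1-KO replicate 4, at -0.29 and -0.53. Gbp3 stood at 9.58, 6.21, 6.63 and 20.8 CPM in HSC-PCK1-KO livers, against 10.5, 8.02, 10.4 and 14.8 CPM in control livers, so replicate 4 was the highest in both genotypes. Gbp7 shares 10.0% of its transcript windows with other transcripts.

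Immunity-related GTPases were the group with the highest score in HSC-PCK1-KO replicate 4. Their group score was -0.11, -0.88, -1.11 and 1.95 in HSC-PCK1-KO replicates 1 to 4, against 0.001, -0.27, 0.16 and 0.26 in control replicates 1 to 4. In this family 5 of 6 log2 fold changes were positive, and without HSC-PCK1-KO replicate 4 all 6 were negative. Iigp1 (ENSMUSG00000054072.13) had the highest CPM of the 39 genes, at 319, 263, 218 and 410.4 CPM in HSC-PCK1-KO livers, against 292, 294, 329.8 and 271 CPM in control livers. The group means lay close together, with a log2 fold change of 0.03 (SE 0.17), while its highest and lowest libraries were both HSC-PCK1-KO.

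Irgm1, which restrains the effector GTPases, stood at 70.2, 54.4, 61.2 and 99.6 CPM in HSC-PCK1-KO livers, against 70.9, 68.5, 63.3 and 74.5 CPM in control livers. Ifi47 stood at 28.1, 26.6, 26.4 and 45.4 CPM in HSC-PCK1-KO livers, against 30.2, 33.4, 36.8 and 36.1 CPM in control livers. For Ifi47 every control value lay between the highest HSC-PCK1-KO value and the other three, and its log2 fold change was -0.11 (SE 0.17).

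Igtp (ENSMUSG00000078853.9), a regulatory member of the family, stood at 42.4, 23.4, 18.9 and 78.5 CPM in HSC-PCK1-KO livers, against 35.7, 21.3, 29.5 and 33.2 CPM in control livers. Its log2 fold change of 0.45 (SE 0.46) was -0.09 without HSC-PCK1-KO replicate 4. Irgm2, its neighbour in sequence, stood at 67.1, 56.5, 46.3 and 146 CPM in HSC-PCK1-KO livers, against 72.0, 65.0, 82.4 and 76.2 CPM in control livers. In both genes 1 HSC-PCK1-KO library was well above every other library. Tgtp1 (ENSMUSG00000078922.10), an effector that loads onto vacuoles, stood at 2.19, 2.17, 2.29 and 20.4 CPM in HSC-PCK1-KO livers, against 4.44, 2.85, 4.14 and 7.93 CPM in control livers. The 3 lowest values of the 8 and the highest were all in HSC-PCK1-KO libraries. The log2 fold change of Tgtp1 was 0.48 (SE 0.86), and fell to -1.13 without HSC-PCK1-KO replicate 4. Tgtp1 shares 73.2% of its transcript windows with other genes, most of all with Tgtp2, so reads of the pair may be split between them. Tgtp2, chosen after its values were seen, stood at 1.68, 1.49, 1.75 and 4.88 CPM in HSC-PCK1-KO livers, against 2.88, 2.17, 2.58 and 2.97 CPM in control livers.

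Grouped by promoter, the 6 genes with both matches (Bst2, Gbp7, Igtp, Irgm2, Oas1a and Tgtp1) had a median level in HSC-PCK1-KO replicate 4 that was 0.97 above their mean over the libraries on the log2 scale. It was 0.47 above for the 12 genes with an ISRE-like match alone, 0.52 for the 3 with a GAS-like match alone, 0.40 for the 8 with neither and 0.44 for the 10 with no window in the table. In control replicate 4 those medians, in the same order, were 0.06, 0.20, 0.17, 0.18 and 0.20. These are descriptions of few genes that share sequence, with no test.

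**Figure D4:**
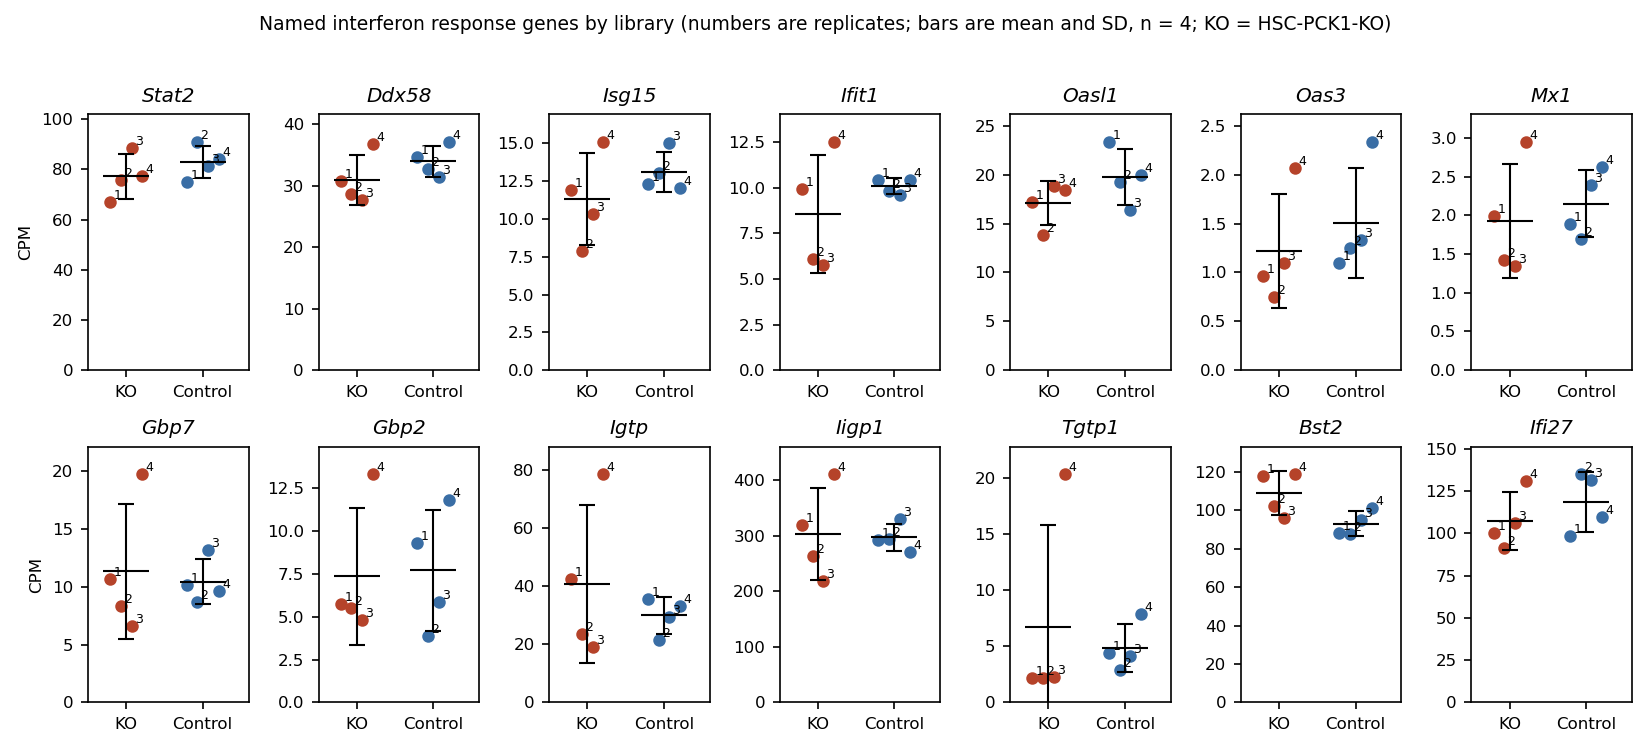
Level in CPM of 14 interferon response genes in each library, HSC-PCK1-KO left and control right in each panel, with the replicate number beside each point and bars for mean and SD (n = 4), cut at 0 for Tgtp1. HSC-PCK1-KO replicate 4 is the highest point for Isg15, Ifit1, Mx1, Gbp7, Gbp2, Igtp, Iigp1, Tgtp1 and Bst2, and Bst2 is the gene with the smallest p.

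Other effectors followed the same order with exceptions. Bst2 (ENSMUSG00000046718.9), tetherin, which holds budding virus at the cell surface, stood at 118, 103, 96.2 and 119 CPM in HSC-PCK1-KO livers, against 88.4, 87.9, 94.8 and 101 CPM in control livers. All but 1 of the HSC-PCK1-KO values lay above every control value. The log2 fold change was 0.23 (SE 0.09, 95% interval from 0.03 to 0.42) with an unadjusted p of 0.0287, and did not pass adjustment (edgeR adjusted p of 0.9998). It was the one gene of the 39 whose interval excluded 0, and its log2 fold change stayed between 0.18 and 0.28 whichever library was left out. The unadjusted p was above 0.05 without HSC-PCK1-KO replicate 1 (0.0872), HSC-PCK1-KO replicate 4 (0.079), control replicate 1 (0.0714) or control replicate 2 (0.0692). Scaled by exon length, Bst2 was also the most abundant of the 39, at 120.6 ± 12.6 CPM per kilobase in HSC-PCK1-KO livers, beside 103.1 ± 7.05 CPM per kilobase in control livers (SD, n = 4 each).

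Ifi27 (ENSMUSG00000064215.14), a membrane protein gene used widely as an interferon marker, stood at 100.3, 91.5, 106 and 131 CPM in HSC-PCK1-KO livers, against 98.2, 135, 132 and 109 CPM in control livers, and the groups overlapped throughout. It came second per kilobase, at 73.2 ± 11.6 CPM per kilobase in HSC-PCK1-KO livers, beside 80.8 ± 12.04 CPM per kilobase in control livers (SD, n = 4 each). Xaf1, a partner of the apoptosis inhibitor XIAP, stood at 15.3, 13.98, 6.98 and 11.3 CPM in HSC-PCK1-KO livers, against 7.45, 5.71, 8.48 and 21.4 CPM in control livers. This gene departed from the shared order, with HSC-PCK1-KO replicates 1 and 2 above HSC-PCK1-KO replicate 4. Its highest level was in control replicate 4, as for 7 of the 39 genes. Rsad2 (viperin) and its neighbour Cmpk2, which make antiviral nucleotides together, had log2 fold changes of -0.03 each. Rsad2 averaged 13.7 ± 3.63 CPM in HSC-PCK1-KO livers, beside 14.01 ± 2.04 CPM in control livers, and Cmpk2 averaged 11.4 ± 3.25 CPM in HSC-PCK1-KO livers, beside 11.6 ± 1.82 CPM in control livers (SD, n = 4 each). Parp14, an ADP-ribosyltransferase, Trim30a, a ubiquitin ligase family member, and Ifi35 lay between -0.12 and -0.04, while Rtp4, a chaperone of receptor transport, was at 0.09. In these 4 genes the highest library was HSC-PCK1-KO replicate 4, save Ifi35, with its highest level in HSC-PCK1-KO replicate 1. Ifi44 was at -0.11, and at -0.66 without HSC-PCK1-KO replicate 4.

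Without HSC-PCK1-KO replicate 4, 11 of the 39 genes had an unadjusted p under 0.05, all lower in HSC-PCK1-KO, where 3.1% of all genes had such a p and 1.7% had it and were lower. They were Ifi47, Tgtp1, Irgm2, Ddx58, Ifih1, Parp14, Isg15, Ifit1, Ifi44, Gbp3 and Usp18. None of them passed adjustment, with an edgeR adjusted p of 0.9999. The other 7 ways of leaving out a library gave 0 to 2 genes, so these 11 rest on the absence of HSC-PCK1-KO replicate 4. It was the highest library for 28 of the 39 genes, so leaving it out lowers their HSC-PCK1-KO mean by construction. The 39 genes had a median pairwise correlation of 0.69 over the 8 libraries, so the 11 are not independent results. This median was 0.90 within the HSC-PCK1-KO libraries and 0.40 within the control libraries.

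The rest of the pathway was examined with lists of genes outside the 39. Of 11 interferon genes themselves, 8 had no read in any library, which allows up to 0.0574 to 0.0708 CPM per library (3 counts, counting error only). Ifng, which encodes interferon gamma, had 5 counts over the HSC-PCK1-KO libraries and 9 over the control libraries. No ligand gene had enough counts to be tested. Of 11 receptor and kinase genes 9 were tested, 3 with positive and 6 with negative log2 fold changes, and Tyk2 and Jak1, with the smallest p, were at -0.11 and -0.06.

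Genes of nucleic acid sensing upstream of interferon were positive in 5 of 15, with Irf5, a factor that induces interferon, at -0.32 and Myd88, a toll-like receptor adaptor, at 0.07. Negative regulators were positive in 3 of 9 tested, with the RNA editor Adar at -0.10 and the phosphatase Ptpn2 at 0.08. Trex1, also in this list, had 0 counts in every library, so it was not tested and has no log2 fold change. The sources used here name no counter or annotation, so 0 counts need not mean that its RNA was absent. Of 36 other interferon-induced antiviral genes 14 were positive, with Ifi205 at -0.51 and Lgals3bp at -0.10. Of 22 other interferon-gamma-induced genes tested 10 were positive, with the proteasome activator Psme1 at 0.11 and the factor Irf8 at -0.22. The 3 genes of ISG15 conjugation had Uba7, the activating enzyme, at -0.17 and Ube2l6, the conjugating enzyme, at 0.07. By edgeR, none of the genes in these lists passed at an adjusted p of 0.05, and none had an unadjusted p under 0.05, where 2.36% of all genes did.

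Replicate 4 of each genotype held the highest scores in every pathway list that had tested genes, not only in the induced lists. Receptor and kinase genes scored 0.70 in HSC-PCK1-KO replicate 4 and 0.56 in control replicate 4. Negative regulators scored 0.61 in each of these libraries, and ISG15 conjugation genes 1.27 and 0.66. The score of the other interferon-gamma-induced genes was -0.23, -0.81, -0.55 and 1.36 in HSC-PCK1-KO replicates 1 to 4, against 0.06, -0.74, 0.17 and 0.73 in control replicates 1 to 4. That of the other interferon-induced antiviral genes was 0.21, -0.69, -0.70 and 0.98 in HSC-PCK1-KO livers, against 0.04, -0.73, -0.15 and 1.04 in control livers. In both lists replicate 4 of each genotype held the highest scores, and in the antiviral list the lowest and the highest library were both control. The score of nucleic acid sensing genes was -0.09, -0.08, -0.21 and 0.26 in HSC-PCK1-KO livers, against -0.02, -0.34, -0.34 and 0.82 in control livers. Cxcl9, a chemokine induced by interferon gamma that draws T cells and was named after its values were seen, stood at 11.996, 9.77, 10.4 and 29.8 CPM in HSC-PCK1-KO livers, against 18.3, 7.57, 14.4 and 24.7 CPM in control livers.

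**Figure D5:**
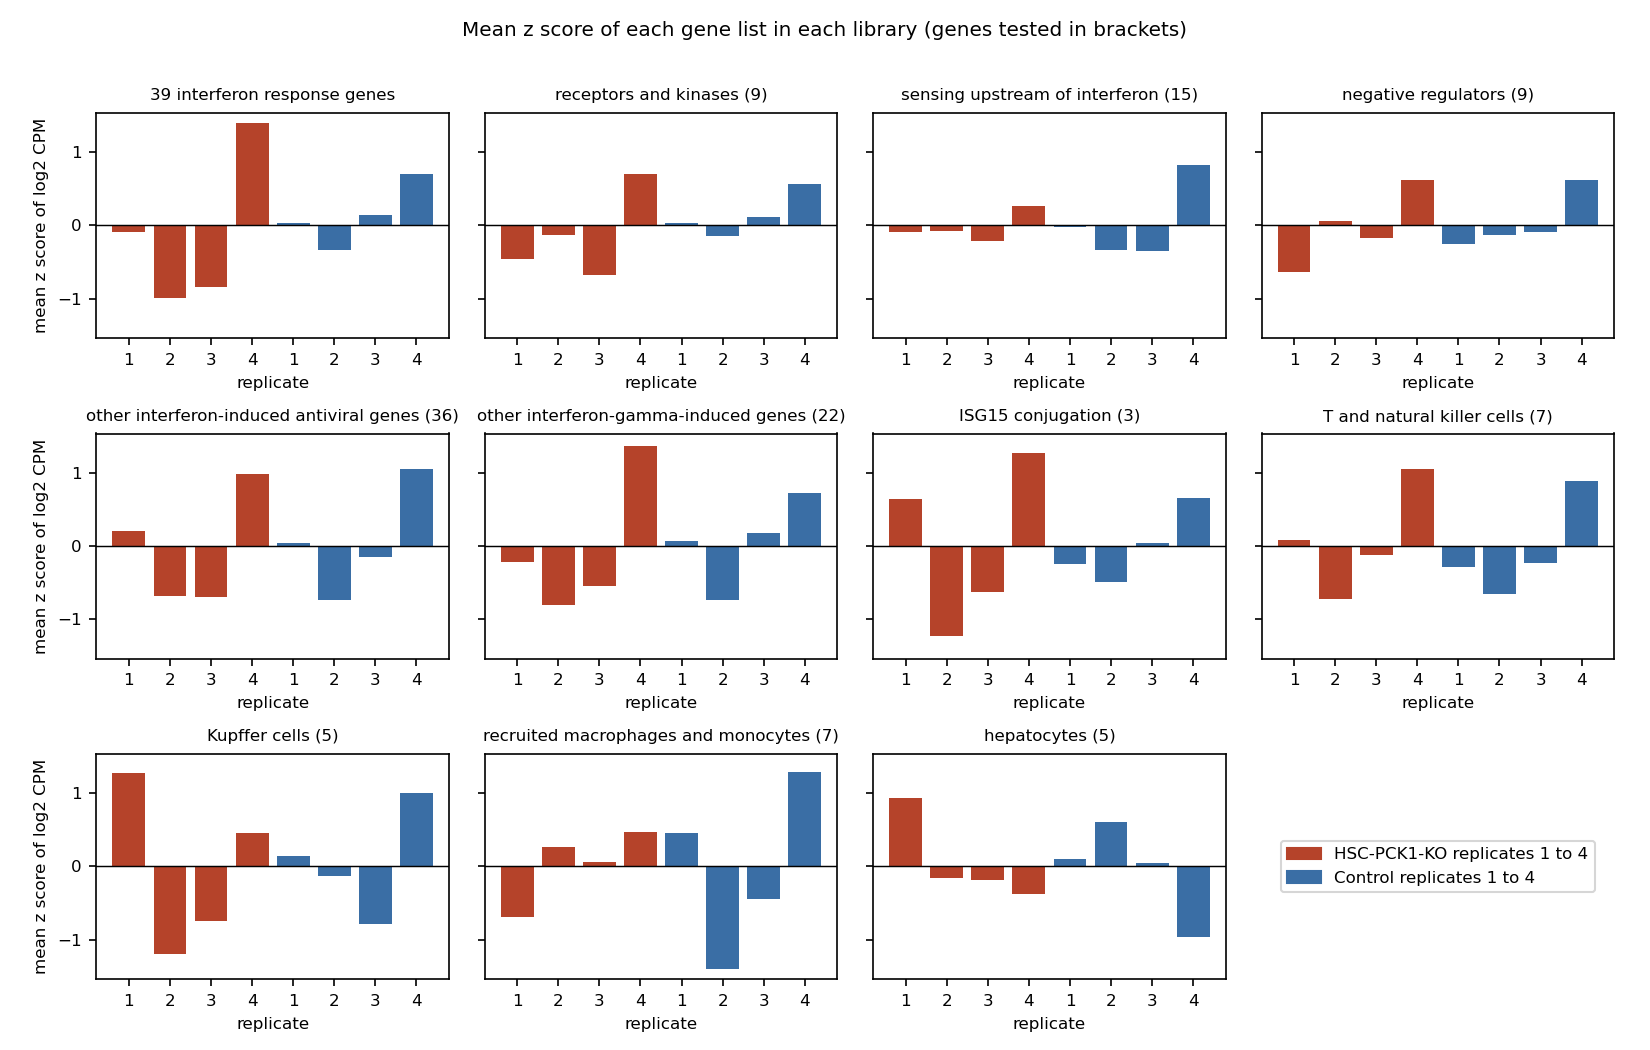
Mean z score of log2 CPM in each library for the 39 genes, for 6 lists of pathway genes and for 4 cell type marker lists, with the number of genes tested in brackets, HSC-PCK1-KO replicates in red and control replicates in blue. Replicate 4 of each genotype holds the highest scores for the 39 genes and for the 6 pathway lists. The same holds for markers of T and natural killer cells and of recruited macrophages and monocytes. Kupffer cell and hepatocyte markers are highest in HSC-PCK1-KO replicate 1.

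Markers of immune cells were read beside these genes. The summed level of 8 T and natural killer cell markers, 7 of them tested, was 4.49, 3.30, 4.20 and 7.50 CPM in HSC-PCK1-KO replicates 1 to 4, against 4.12, 3.99, 4.37 and 6.57 CPM in control replicates 1 to 4. Its highest libraries were replicate 4 of each group, as for the 39 genes. Cd3e, Cd8a, Ncr1 and Nkg7 had these libraries on top, and the other markers did not follow the sum. Cd4 was highest in control replicate 2 at 2.22 CPM. Cd3d and Klrb1c were higher in HSC-PCK1-KO replicate 1 than in HSC-PCK1-KO replicate 4. Gzmb was higher in control replicate 1 (0.710 CPM) than in control replicate 4 (0.689 CPM). Cd8a stood at 0.290, 0.362, 0.416 and 1.79 CPM in HSC-PCK1-KO replicates 1 to 4. Of the other immune cell lists, those of conventional dendritic cells and neutrophils had the same libraries on top by summed CPM. Conventional dendritic cell markers, 5 of 5 tested, summed to 8.82, 10.1, 9.68 and 12.6 CPM in HSC-PCK1-KO livers, against 10.53, 8.96, 10.7 and 13.3 CPM in control livers. Zbtb46 alone held 5.76 to 7.22 CPM of these sums. Neutrophil markers, 2 of 5 tested, summed to 2.23, 1.47, 1.41 and 2.48 CPM in HSC-PCK1-KO livers, against 2.17, 0.519, 1.67 and 3.73 CPM in control livers. In both lists, too, replicate 4 was the highest library of each group. B and plasma cell markers summed to 6.28 to 9.06 CPM in HSC-PCK1-KO livers and 4.01 to 9.05 CPM in control ones. Their highest control library was replicate 1, with replicate 4 at 6.26 CPM. The sum of 5 Kupffer cell markers ranged over 223 to 429 CPM in HSC-PCK1-KO livers and 265 to 417 CPM in control ones, with the highest value in HSC-PCK1-KO replicate 1. The 7 recruited macrophage and monocyte markers summed to 27.3 to 48.6 CPM in HSC-PCK1-KO livers and 16.0 to 57.7 CPM in control ones. By this sum their highest HSC-PCK1-KO library was replicate 2, and their highest control library was replicate 4. By mean z score, replicate 4 was the highest library of each group, at 0.47 in HSC-PCK1-KO and 1.29 in control. HSC-PCK1-KO replicate 2 scored 0.26 and control replicate 1 scored 0.45. Plasmacytoid dendritic cells, which can make large amounts of type I interferon, had markers summing to 13.96 to 17.4 CPM in HSC-PCK1-KO livers and 14.2 to 15.8 CPM in control ones, with 2 of the 5 listed tested. That sum was highest in HSC-PCK1-KO replicate 4, and its highest control library was replicate 1. It was mostly Tcf4, at 12.8 to 16.0 CPM over the libraries, while Siglech was at 0.19 to 0.86 CPM. Hepatocyte markers, 5 of 5 present, summed to 80552 to 100202 CPM in HSC-PCK1-KO livers and 82665 to 103783 CPM in control ones. The 7 stellate cell markers summed to 259 to 311 CPM in HSC-PCK1-KO livers and 289 to 351 CPM in control ones. No marker in these lists was at 0 in all libraries. The part of these cells in the levels of the 39 genes was not tested.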

How the data were processed

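Liver RNA of 4 HSC-PCK1-KO and 4 control mice was measured. The authors deposited raw counts per gene, whole numbers for 56953 identifiers in each library. Per the labels' protocols, libraries were strand-specific, paired-end and poly(A)-selected; per the submitters' processing notes the build was GRCm39 and R 4.3.2 was used. The sources used here name no aligner, counter, annotation or strand setting. Symbols came by identifier from GENCODE M21, which named 52029. Exon lengths and shared 100-base transcript windows also came from it.

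Genes were filtered with filterByExpr (15669 of 28811 with any count kept), scaled with TMM factors and compared with edgeR 4.0.16 in R 4.3.3 (quasi-likelihood F-test, genotype as the only term), with Benjamini-Hochberg adjustment over all genes and a threshold of 0.05. CPM used library total and TMM factor, and log2 CPM a prior count of 2. Each of these was changed in turn: the factors (RLE, upper quartile), the filter (none, or 1 CPM in at least 4 libraries), the tool (DESeq2 1.42.0, or voom of limma 3.58.1 with weights per sample), the replicate number added as a block, the prior count (0.5), and 1 library left out. The calculation was tested on simulated counts.

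The 39 genes and all lists were chosen with earlier results of these data known. Values by library are given, by role, for the gene with the smallest p, the 3 with the highest CPM, the 3 with log2 fold changes farthest from 0 and the 3 with the largest SD within groups, and in each pathway list the 2 with the smallest p are named. Irf9, Irf1, Gbp3, Irgm1, Irgm2, Ifi47, Xaf1, Cxcl9 and Tgtp2 were added after their values were seen. Depth was 44695439 to 49477255 counts, and the lowest count of the 39 genes in a library was 37, for Oas3. The shares of counting error and of spread between libraries in the precision were not tested. Results of 1 gene are not reported here.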

Additional observations from a re-analysis of the deposited data

Results flagged for a closer look

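In 8 of 78 groups of 4 libraries, 2 for each of the 39 genes, one library lay far from the other three by Dixon's test, where chance gives about 1 in 20 groups, or 3.9. That is 10.3% of these groups, beside 5.35% of the groups of all genes tested. The test was made on CPM. On the log2 scale, tried after the data were seen, 7 groups passed, Oasl2 and Parp14 did not, and Ifit3 in control livers did. The genes share their order across libraries, so these 8 are not independent. In 7 of the 8 the library was HSC-PCK1-KO replicate 4, and it was high. It held 20.4 CPM of Tgtp1, beside 2.17 to 2.29 CPM in the other HSC-PCK1-KO libraries. It held 45.4 CPM of Ifi47, beside 26.4 to 28.1 CPM, and 13.3 CPM of Gbp2, beside 4.84 to 5.72 CPM. Irf1 was at 54.7 CPM there, beside 32.3 to 34.6 CPM, and Irf9 at 47.1 CPM, beside 33.2 to 34.5 CPM. Parp14 was at 51.3 CPM, beside 31.4 to 34.3 CPM, and Oasl2 at 10.5 CPM, beside 6.03 to 6.79 CPM. The eighth was Oas1a in control replicate 4, at 6.36 CPM beside 3.72 to 3.94 CPM in the other control libraries.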

How the results depend on the processing

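No gene of the 39 passed under any of the 15 alternatives, with Tgtp1 not tested in DESeq2. Genes past the threshold over the whole table numbered 0, and 6 with DESeq2, none of them among the 39, and 0 to 1 when a library was left out. RLE and upper quartile factors, both filters and DESeq2 changed the sign of none of the 39. The count with a positive log2 fold change, 10, was 3 with limma-voom and ran from 2 to 24 when a library was left out, and 14 genes kept their sign under every alternative. The count at an unadjusted p under 0.05, 1, ran from 0 to 11 in the same fits, and the median log2 fold change from -0.24 to 0.04. The median of the ISG15 conjugation list ran from -0.25 to 0.11 and that of nucleic acid sensing from -0.079 to 0.074. The causes were not tested. With the replicate number as a block 0 genes passed and 7 of the 39 were positive, with a median of -0.07. Deviations of same-numbered libraries from their group means had correlations of -0.03, -0.33, -0.06 and 0.06 over all genes tested. Over the 39 genes these were 0.06, 0.19, -0.06 and 0.30. Whether same-numbered libraries share more than a number was not tested. The library scores moved by at most 0.014 with RLE factors or a prior count of 0.5.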
